A study of Homo sapiens with 3 samples.

Results

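The genes described here are 32 genes of cholesterol and fatty acid synthesis, chosen by name, out of 21614 genes measured on the arrays. They comprise 18 enzymes of the sterol pathway, 7 enzymes of fatty acid synthesis and desaturation, and 7 genes that regulate these pathways or carry their products. HT29 cells, an established human line from a colon adenocarcinoma, were grown on tissue culture polystyrene plates (TCP), on chitosan membranes (CS) or on chitosan membranes grafted with hyaluronan (CSHA). No other treatment or genetic change is given for any group, and the medium of this line contained fetal bovine serum. Each group was measured on 1 single-colour Agilent array, with no replicate, so differences between groups could not be tested and are given as sizes. Among the sterol enzymes, 17 of 18 exceeded their TCP level on CS and 14 of 18 did so on CSHA, against 56.8% and 61.7% of all genes. The median log2 differences of the sterol enzymes were 0.27 and 0.44. The 7 fatty acid enzymes had medians of 0.04 and 0.13, the same to 2 decimals as the medians of all genes compared.

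Cells make cholesterol from acetyl-CoA through mevalonate, farnesyl diphosphate, squalene and lanosterol, and they make fatty acids from the same acetyl-CoA through malonyl-CoA. Transcription of both pathways is driven by the SREBP factors, membrane proteins that SCAP escorts from the endoplasmic reticulum to the Golgi for cleavage when sterols are low and that INSIG proteins hold back when sterols are high. SREBP-2, the product of SREBF2, acts mostly on sterol genes, and the products of SREBF1 act on fatty acid genes, among others.

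All 3 arrays lay on the same slide. Of all probes, 48.6% to 51.1% were well above background, no spot was saturated, and the processed signal at the 75th percentile of the TCP, CS and CSHA arrays was 354, 423 and 337. Signals are given below in scanner units as deposited, and each log2 difference is taken after subtracting the array's own 75th percentile, so a signal can be higher on CS while its log2 difference is below 0. Every one of the 32 genes was well above background on all 3 arrays, 30 of them in 1 spot per array by their brightest probe. The error given is the spot spread, the SD expected of a difference from the scatter of probes printed 10 times on an array. Its median over the 32 genes was 0.06, and it covers neither cultures nor hybridizations. All 10 epithelial markers checked, among them EPCAM, KRT20 and CDX2, were well above background on each array, and their summed signal was 464016, 498351 and 466654 on TCP, CS and CSHA. Of 11 stromal and immune markers with a probe, 6 were above background on TCP, 3 on CS and 4 on CSHA, with summed signals of 414, 421 and 383. COL1A1, COL1A2, COL3A1, DCN and LUM were below background on every array. CD68 read 119, 248 and 228 on the TCP, CS and CSHA arrays, and CD3E read 122, 20.6 and 34.4. The part of these markers in the results below was not tested. In bulk RNA, fewer cells of a type and less RNA per cell cannot be told apart.

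Early steps of the mevalonate pathway were higher on both membranes, and several later steps were lower on CSHA than on CS. HMGCS1, which condenses acetoacetyl-CoA and acetyl-CoA into HMG-CoA, had signals of 1329 on TCP, 2377 on CS and 2545 on CSHA. It was 0.58 higher on CS and 1.01 higher, or 2.01-fold, on CSHA, the largest difference of any of the 18 sterol enzymes on each membrane. ACAT2, the cytosolic thiolase that supplies acetoacetyl-CoA, read 9272, 13157 and 10974, with log2 differences of 0.25 and 0.31 from TCP. IDI1, the isomerase that forms dimethylallyl diphosphate, had signals of 2869, 4570 and 4229 and was 0.42 higher on CS and 0.63 higher on CSHA.

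The kinases of the pathway differed less. MVK, mevalonate kinase, was 0.17 higher on CS and 0.26 higher on CSHA, and PMVK, phosphomevalonate kinase, was 0.15 higher on CS and at -0.03 on CSHA, within the spot spread. MVD, which decarboxylates mevalonate diphosphate, had signals of 573 on TCP, 781 on CS and 393 on CSHA. It was highest on CS and lowest on CSHA, at 0.19 and -0.47 from TCP with a spot spread of 0.08. FDPS, farnesyl diphosphate synthase, ran the same way, with signals of 17341, 24541 and 14900 and log2 differences of 0.25 and -0.15. With arrays scaled to spike-in probes, where all genes had a median of 0.56 on CSHA, FDPS was 0.28 above TCP. Against CS, CSHA was lower by -0.66 for MVD, -0.39 for FDPS and -0.18 for PMVK. RefSeq lists 10 pseudogenes of FDPS and 3 of IDI1, whose transcripts these probes may also bind.

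**Figure D1:**
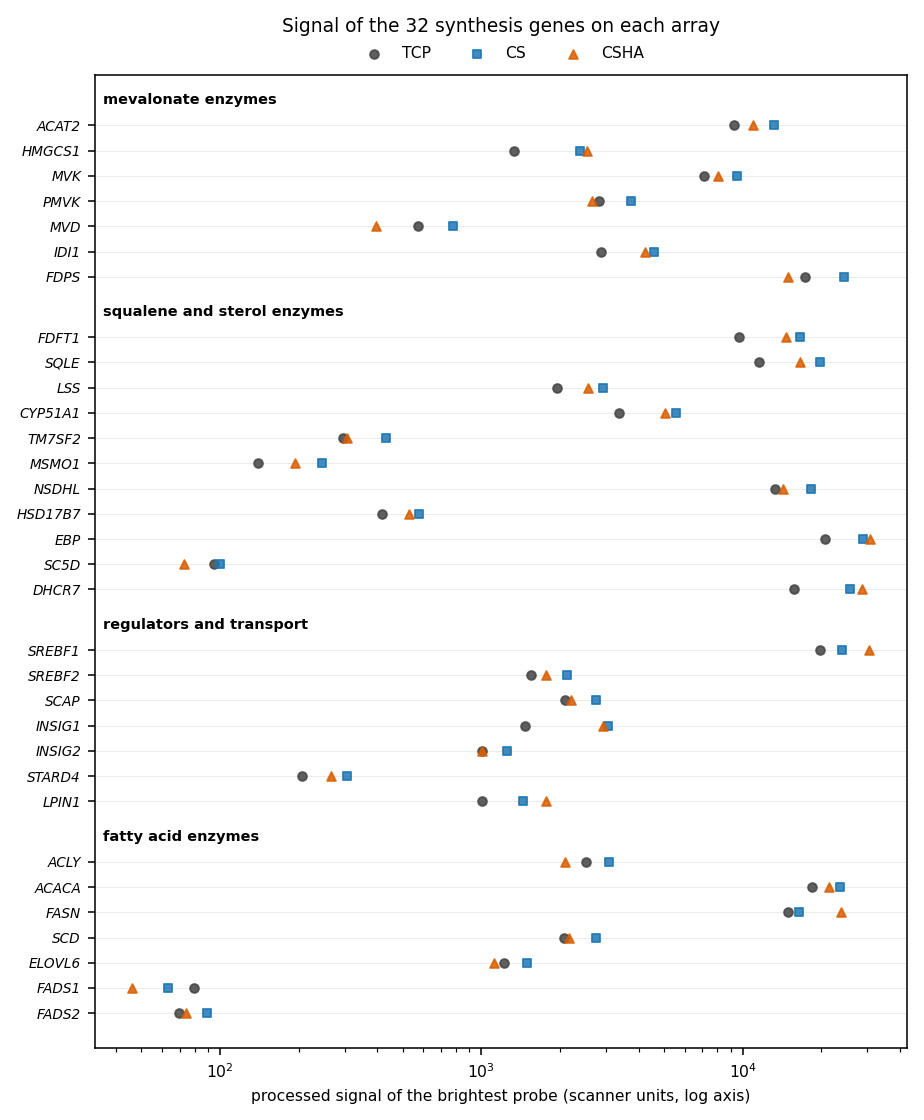
Processed signal of the brightest probe of each of the 32 genes (x axis, scanner units, log scale) on the TCP, CS and CSHA arrays, 1 point per array, before the shift by the 75th percentile. Points may be compared within a gene, not between genes. HMGCS1, INSIG1 and DHCR7 lie lowest on TCP, while MVD and FDPS are lowest on CSHA.

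From squalene onward the enzymes were higher on both membranes with a single exception. FDFT1, squalene synthase, the step that commits farnesyl diphosphate to sterols, had signals of 9655 on TCP, 16577 on CS and 14641 on CSHA, or 0.52 and 0.67 above TCP. SQLE, squalene epoxidase, read 11587, 19741 and 16580, with differences of 0.51 and 0.59. Both genes were lowest on TCP, and CSHA exceeded CS by 0.15 for FDFT1, beyond 2 spot spreads, and by 0.07 for SQLE, within them. LSS, lanosterol synthase, was 0.33 and 0.47 above TCP by its brightest probe. Its other probe, with dim signals of 38.4, 48.3 and 45.7 on TCP, CS and CSHA, gave 0.08 and 0.32. CYP51A1, the lanosterol demethylase, was 0.47 and 0.65 above TCP. RefSeq lists 3 pseudogenes of CYP51A1.

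The enzymes that trim lanosterol to cholesterol were spread more widely. MSMO1, the methylsterol oxidase, was printed in 10 spots, with mean signals of 140, 246 and 194. It was 0.56 ± 0.03 higher on CS and 0.54 ± 0.04 higher on CSHA (SE over spots of 1 array each), and CSHA and CS differed by -0.02. TM7SF2, a sterol reductase also printed in 10 spots, was 0.29 ± 0.03 higher on CS and 0.12 ± 0.02 higher on CSHA, the latter level with the median of all genes. NSDHL, which removes a carboxyl group during demethylation, was 0.20 and 0.18 higher.

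HSD17B7, the ketoreductase of that step, was 0.22 and 0.41 higher by its brightest probe. Its 10-spot probe gave 0.36 ± 0.04 and 0.29 ± 0.03, and the third probe gave 0.09 and 0.03, so the order of the membranes depended on the probe. RefSeq lists 2 pseudogenes of HSD17B7. EBP, the sterol isomerase, had signals of 20739, 28943 and 30799, or 0.23 and 0.64 above TCP. DHCR7, the reductase that ends a branch of the pathway in cholesterol, had signals of 15673 on TCP, 25736 on CS and 28570 on CSHA. It was 1.38-fold higher on CS and 1.91-fold higher on CSHA, next to HMGCS1 among sterol enzymes on CSHA. SC5D, the sterol desaturase, was the exception with signals of 94.9, 99.8 and 72.9 and differences of -0.18 and -0.31, both within 2 spot spreads because its spots were dim.

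**Figure D2:**
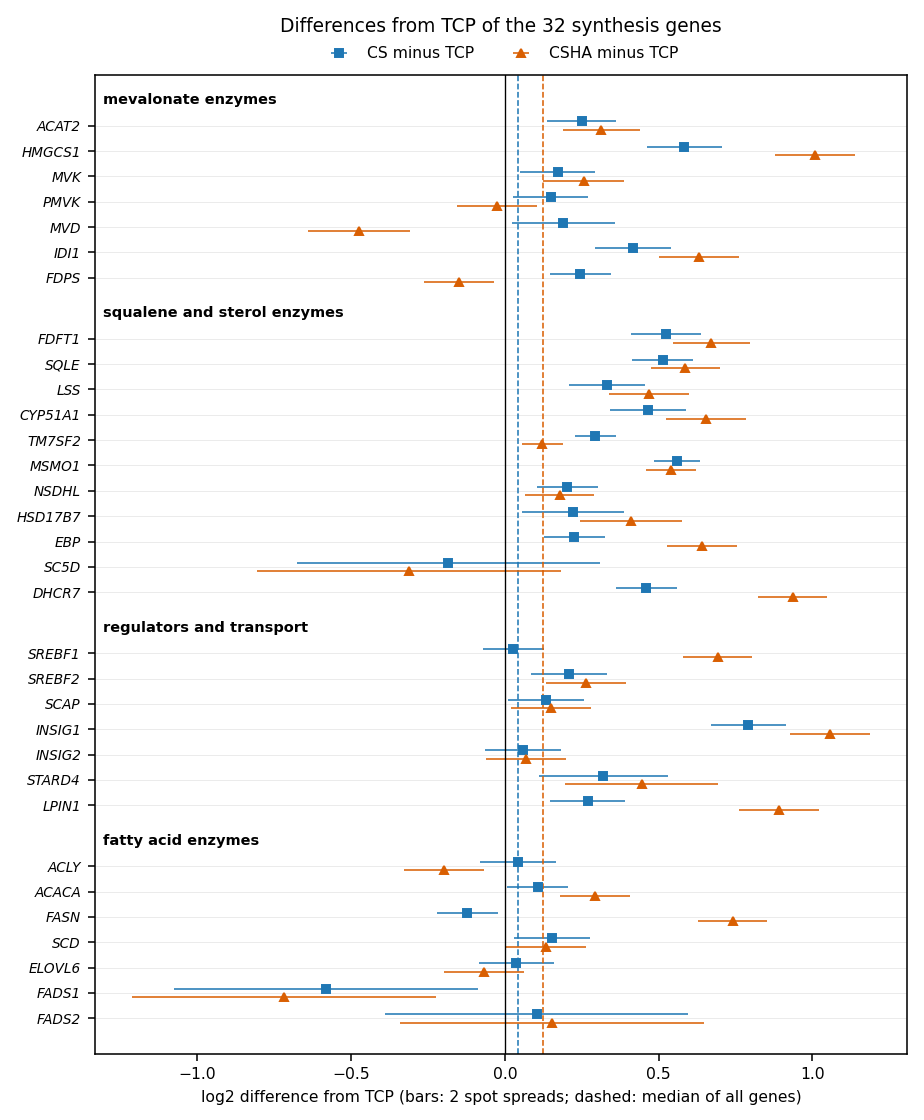
Log2 difference from TCP of each of the 32 genes on CS and CSHA after the 75th percentile shift, with bars of 2 spot spreads and dashed lines at the median of all genes compared, 0.04 on CS and 0.13 on CSHA. Sterol enzymes lie mostly to the right of the lines, INSIG1 lies farthest right, and FADS1 lies farthest left.

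Because these enzymes were higher together on CS, the bases before their starts were read from RefSeq promoter entries of the GRCh38.p14 assembly, which 28 of the 32 genes have. ACAT2, FDFT1, SQLE and FASN have no entry. SREBP factors bind sterol regulatory elements and act there with NF-Y, which binds CCAAT boxes. The letters of the CCAAT box, of CACNCCA as the core of a sterol element and of TCACNCCAC as a longer form that holds the core were searched on both strands of the 250 bases before any listed start. CCAAT was found in 13 of 15 sterol enzymes, in 3 of 6 fatty acid enzymes, in 3 of 7 regulators and in 37.0% of all 27305 genes with an entry. Among the sterol enzymes, 9 of 15 held it more than 1 time before the same start, as did 3 of 6 fatty acid enzymes and 11.5% of all genes. The core was found in 7 of 15 sterol enzymes, 2 of 6 fatty acid enzymes and 17.4% of all genes. The longer form was in SREBF2 alone among the 28 genes and in 1.09% of all genes. These matches describe letters and are no evidence of binding.

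Sequences of 250 bases up to the start are given 5′ to 3′ on the gene's strand for HMGCS1 and INSIG1, the highest enzyme and regulator on CSHA, for MSMO1, with 4 CCAAT boxes, for SREBF2, which holds the longer element, and for FADS1, the gene farthest below TCP, which holds none of these letters. They lie at chr5:43313413-43313662 (minus strand), chr7:155297628-155297877 (plus strand), chr4:165327419-165327668 (plus strand), chr22:41832855-41833104 (plus strand) and chr11:61817004-61817253 (minus strand). Capitals mark CCAAT (or ATTGG on the other strand) and the core or longer element.
HMGCS1: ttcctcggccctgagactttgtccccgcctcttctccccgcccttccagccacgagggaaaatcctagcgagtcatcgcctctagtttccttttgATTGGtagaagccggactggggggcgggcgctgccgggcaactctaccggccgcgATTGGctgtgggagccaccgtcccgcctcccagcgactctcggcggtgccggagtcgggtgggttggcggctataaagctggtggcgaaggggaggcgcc
INSIG1: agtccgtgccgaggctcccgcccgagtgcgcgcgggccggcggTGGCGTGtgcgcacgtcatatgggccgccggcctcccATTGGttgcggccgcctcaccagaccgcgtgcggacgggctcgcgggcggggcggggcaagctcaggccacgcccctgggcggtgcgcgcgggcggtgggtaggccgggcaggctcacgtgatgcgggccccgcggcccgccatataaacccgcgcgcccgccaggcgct
MSMO1: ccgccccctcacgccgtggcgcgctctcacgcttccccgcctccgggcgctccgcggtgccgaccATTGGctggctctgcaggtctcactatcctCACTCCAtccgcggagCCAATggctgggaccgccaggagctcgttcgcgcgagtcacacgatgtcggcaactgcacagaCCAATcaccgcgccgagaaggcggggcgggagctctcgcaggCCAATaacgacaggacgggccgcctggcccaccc
SREBF2: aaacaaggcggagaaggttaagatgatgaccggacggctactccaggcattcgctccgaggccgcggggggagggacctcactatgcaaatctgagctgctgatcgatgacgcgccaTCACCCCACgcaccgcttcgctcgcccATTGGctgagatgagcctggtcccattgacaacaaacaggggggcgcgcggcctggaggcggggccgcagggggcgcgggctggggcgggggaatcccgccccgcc
FADS1: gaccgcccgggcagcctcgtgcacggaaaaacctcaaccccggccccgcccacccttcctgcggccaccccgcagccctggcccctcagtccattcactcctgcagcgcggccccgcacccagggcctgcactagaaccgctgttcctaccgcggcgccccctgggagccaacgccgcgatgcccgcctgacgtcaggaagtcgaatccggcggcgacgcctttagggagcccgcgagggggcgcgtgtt

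**Figure D3:**
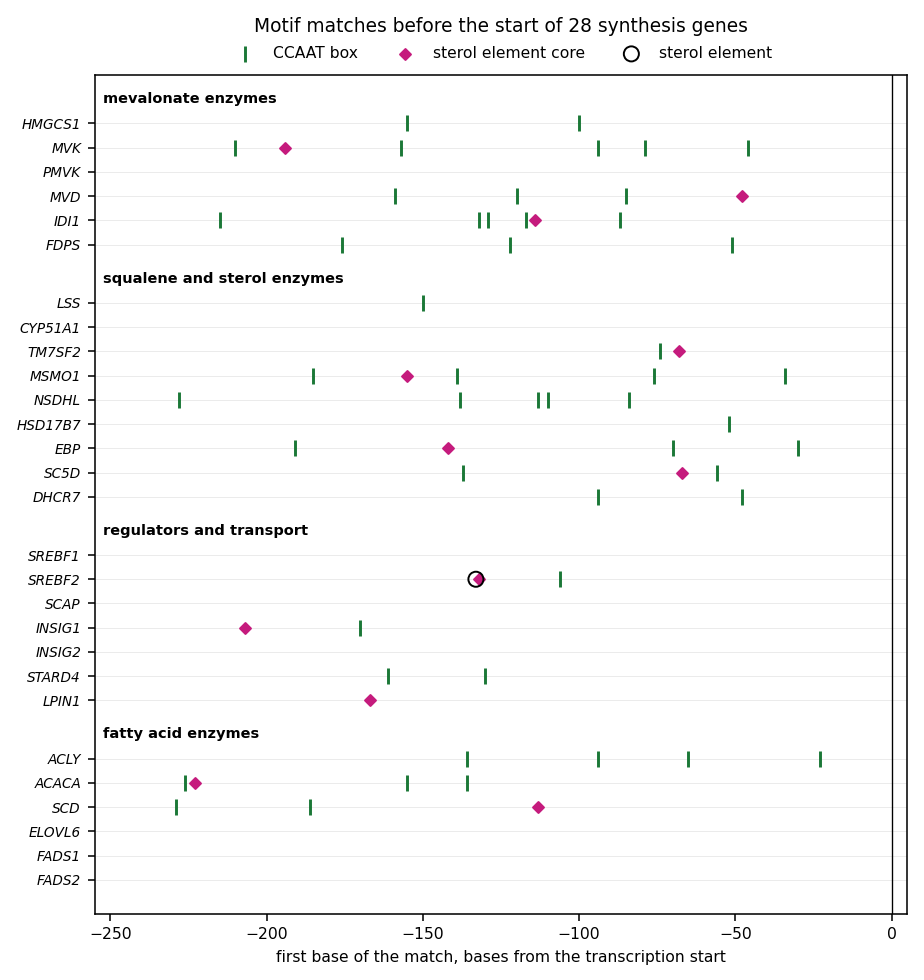
Matches of the CCAAT box, the sterol element core and the longer sterol element in the 250 bases before the start of 28 genes (x axis, bases from the transcription start), with the matches of all listed starts of a gene drawn together. CCAAT boxes lie before 13 of the 15 sterol enzymes, all but PMVK and CYP51A1, and before ACLY, ACACA and SCD among the fatty acid enzymes, while ELOVL6, FADS1 and FADS2 carry none.

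All 7 regulators were higher than TCP on both membranes, as were 56.8% (CS) and 61.7% (CSHA) of all genes. Of these differences, SREBF1 and INSIG2 on CS and INSIG2 on CSHA lay within 2 spot spreads. On CS, SREBF1 turned below 0 under 3 of 9 processing alternatives and INSIG2 under 1. INSIG1, which retains SCAP in the endoplasmic reticulum and is itself a target of SREBP, had signals of 1474, 3046 and 2924 on TCP, CS and CSHA. The TCP array was lowest, and INSIG1 was 1.73-fold higher on CS and 2.08-fold higher on CSHA, the largest differences of the 32 genes. INSIG2, its paralog, had signals of 1010, 1256 and 1008 and was at 0.06 and 0.07, within 2 spot spreads.

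SREBF2 was 0.21 higher on CS and 0.26 higher on CSHA, with signals of 1544, 2130 and 1767. Its promoter holds the longer sterol element shown above. SREBF1 had, by its brightest probe, signals of 19760, 24037 and 30407 on TCP, CS and CSHA, or 0.03 above TCP on CS, under the median of all genes, and 0.69 above TCP on CSHA. The other SREBF1 probe, with signals of 277, 290 and 278, gave -0.19 and 0.08, and the mean of both probes on CSHA was 0.38. SCAP was 0.13 and 0.15 higher, near the medians of all genes.

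STARD4, which carries cholesterol between membranes, was 0.32 and 0.44 higher than TCP. LPIN1, a phosphatidate phosphatase that makes diacylglycerol, had signals of 1003, 1442 and 1773, or 0.27 and 0.89 above TCP, and its other probe was below background on all arrays. All 7 regulators were also higher on CSHA than on CS, as were 58.5% of all genes. The difference was 0.62 for LPIN1 and 0.27 for INSIG1. For SREBF1 it was 0.66 by the brightest probe and 0.27 by the other probe. The differences of the other 4 regulators lay within 2 spot spreads.

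Fatty acid enzymes showed no common direction. FASN, the fatty acid synthase, had signals of 14940 on TCP, 16385 on CS and 23775 on CSHA. Relative to TCP it was at -0.12 on CS and 0.74 on CSHA, or 1.67-fold higher on CSHA, and CSHA exceeded CS by 0.86, the largest difference between the membranes among the 32 genes. ACACA, acetyl-CoA carboxylase, which makes malonyl-CoA, was 0.11 and 0.29 higher by its brightest probe, but its other probe gave -0.02 and -0.22. ACLY, the lyase that makes cytosolic acetyl-CoA for both pathways, had signals of 2513, 3090 and 2088, or 0.04 and -0.20 from TCP, and 0.23 on CSHA under the spike-in scaling.

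Desaturases and the elongase differed little or were dim. SCD, which introduces the double bond of oleate, was 0.15 and 0.13 higher than TCP, and RefSeq lists 1 pseudogene of it. ELOVL6, the elongase of palmitate, was at 0.04 and -0.07, within 2 spot spreads. FADS1, a desaturase of polyunsaturated fatty acids, had signals of 79.2 on TCP, 63.2 on CS and 45.8 on CSHA. It was highest on TCP and lowest on CSHA, at -0.58 and -0.72 with a spot spread of 0.25, and so 1.65-fold lower on CSHA. FADS2, its neighbour in the pathway, read 69.6, 89.2 and 73.8 and was at 0.10 and 0.15.

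Set side by side on CS, the 18 sterol enzymes had a median log2 difference of 0.27 and the 7 fatty acid enzymes of 0.04, with all 14464 genes compared at 0.04. Of the sterol enzymes 17 of 18, of the fatty acid enzymes 5 of 7 and of all genes 56.8% were above TCP. In the order of differences, 16 of the 18 sterol enzymes exceeded SCD, the highest fatty acid enzyme. By size, 0 of the 32 genes reached a 2-fold higher level on CS, against 1.37% of all genes, 0 were at least 2-fold lower, against 1.92%, and INSIG1 alone was at least 1.5-fold higher, against 4.12% of all genes, with 0 at least 1.5-fold lower, against 5.03%. The differences of the sterol enzymes on CS were small and nearly all in the same direction.

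On CSHA, the medians were 0.44 for the sterol enzymes, 0.13 for the fatty acid enzymes and 0.13 for all 14624 genes. Higher than TCP were 14 of 18 sterol enzymes, 4 of 7 fatty acid enzymes and 61.7% of all genes. FASN, at 0.74, lay among the highest sterol enzymes, and only HMGCS1 and DHCR7 exceeded it, whereas 11 of 18 exceeded ACACA, the next fatty acid enzyme. HMGCS1 and INSIG1 were the 2 of 32 genes at least 2-fold higher, against 3.02% of all genes, and 0 were 2-fold lower, against 3.98%. Both lie close to the 2-fold threshold, since 0 genes reached it when the 75th percentile was taken over detected probes. At 1.5-fold, 11 genes were higher, against 11.5% of all genes, namely HMGCS1, IDI1, FDFT1, SQLE, CYP51A1, EBP, DHCR7, SREBF1, INSIG1, LPIN1 and FASN. FADS1 was the 1 gene at least 1.5-fold lower, against 11.2% of all genes. The 9034 genes brighter than the 75th percentile of TCP had medians of 0.05 (CS) and 0.10 (CSHA).

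The membranes differed from each other less evenly. The median of CSHA minus CS was 0.08 for sterol enzymes, -0.02 for fatty acid enzymes and 0.07 for all 14600 genes. Higher on CSHA than on CS were 21 of 32 genes, against 58.5% of all genes, a similar share. Differences of 2-fold or more between the membranes numbered 0 in either direction, against 2.27% of all genes higher and 2.15% lower on CSHA. Beyond 2 spot spreads, 8 sterol enzymes were higher on CSHA (HMGCS1, IDI1, FDFT1, LSS, CYP51A1, HSD17B7, EBP and DHCR7) and 4 were lower (PMVK, MVD, FDPS and TM7SF2). The share of all genes beyond 2 spot spreads was not computed, so these counts have no background and set no trait of the sterol enzymes apart. At 1.5-fold, SREBF1, LPIN1 and FASN were higher on CSHA, against 7.68% of all genes, and MVD was lower, against 7.33%. The comparisons with TCP share that array, so a spot error on TCP enters both.

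**Figure D4:**
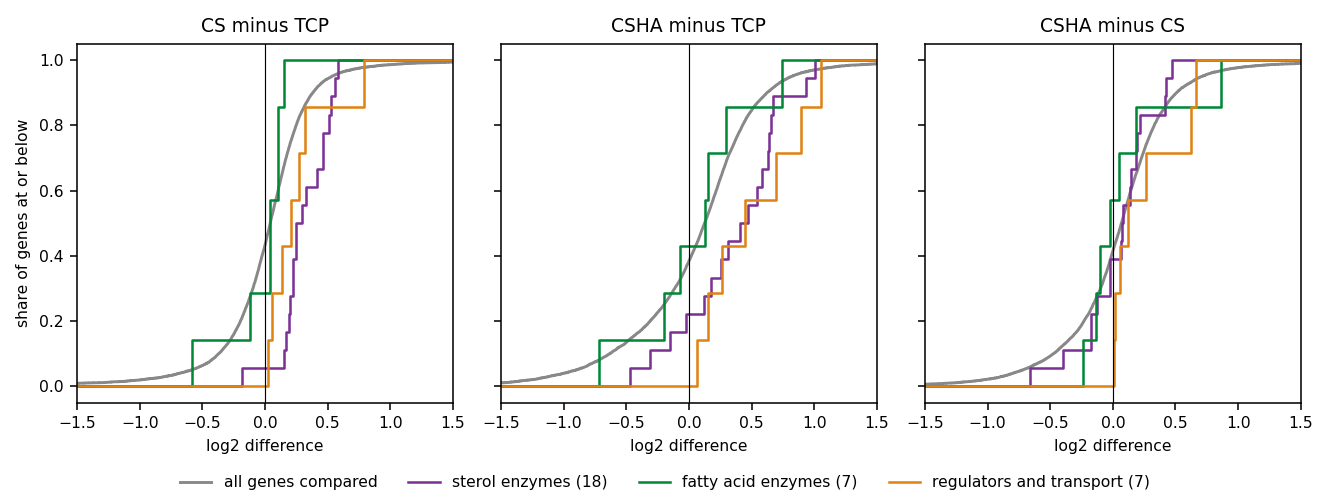
Share of genes (y axis) at or below each log2 difference (x axis) for all genes compared, 18 sterol enzymes, 7 fatty acid enzymes and 7 regulators, in the comparisons CS minus TCP, CSHA minus TCP and CSHA minus CS. The sterol curve lies to the right of the curve of all genes over most of the range against TCP, while between the membranes it follows that curve.

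For the 4 lists of neighbouring genes that follow, the share of all genes higher than TCP was 56.8% on CS and 61.7% on CSHA. In a list of 12 genes of sterol synthesis and uptake, 10 were higher on CS and 9 on CSHA, with medians of 0.26 and 0.31. NPC1, which exports cholesterol from lysosomes, was lowest, at -0.15 and -0.38. MBTPS1 and MBTPS2, the proteases that cleave SREBP in the Golgi, were named after their values were seen, and they were 0.36 and 0.49 higher on CS and 0.46 and 0.63 higher on CSHA.

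Among 18 of 20 genes of fatty acid activation, elongation and glycerolipid synthesis that could be compared, 14 were higher on CS and 13 on CSHA, with medians of 0.13 and 0.18. ACSL1, an acyl-CoA synthetase in 10 spots, was highest, with mean signals of 304, 627 and 539 and differences of 0.79 and 0.90. ELOVL1, an elongase of very long chains, was lowest of the list on CS, at -0.14, and was at -0.77 on CSHA. DGAT2, which completes triglycerides, had signals of 270 on TCP, 410 on CS and 129 on CSHA. It was 0.35 above TCP on CS and at -0.99 on CSHA, so CSHA was lower than CS by -1.34.

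LXR factors sense oxysterols and drive cholesterol export. In a list of 10 genes of LXR, cholesterol export and esterification, 6 of the 8 that could be compared were higher on CS and 5 of 7 on CSHA, with medians of 0.24 and 0.53. ABCA1 and ABCG1, export pumps and LXR targets, had signals of 138, 220 and 379 and of 106, 169 and 308. ABCA1 was 0.42 higher on CS and 1.53 higher on CSHA, and ABCG1 was 0.41 and 1.60 higher, so both were highest on CSHA. NR1H2, which encodes an LXR, showed -0.02 for CS with -1.01 for CSHA, at signals of 294, 347 and 139. NR1H3, the other LXR gene of the list, was named after its values were seen. It went the other way, 0.29 higher on CS and 0.53 higher on CSHA, at signals of 9172, 13376 and 12599. SOAT2, which esterifies cholesterol, was at -0.73 and -0.29 with signals under 67.

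Fatty acid oxidation and ketogenesis, the routes that consume fatty acids, had 11 of 12 genes higher on CS and 8 of 12 on CSHA, against 56.8% and 61.7% of all genes, with medians of 0.21 and 0.24. PDK4, a kinase that restrains pyruvate oxidation, was highest of the list on CS at 0.51, and was 0.83 higher on CSHA. SLC25A20, the carnitine carrier, was lowest on CS at -0.15 and at -0.18 on CSHA.

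**Figure D5:**
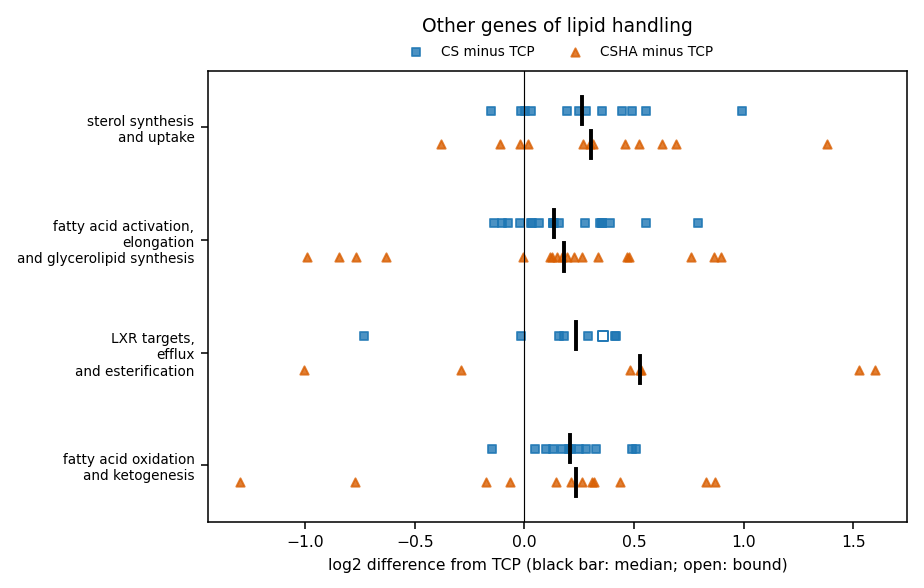
Log2 difference from TCP on CS and CSHA of genes in 4 lists of lipid handling, 1 point per gene, with the median of each list as a black bar and a bound drawn open. All 4 medians lie above 0 on both membranes, and the spread is wider on CSHA than on CS.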

How the data were processed

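Spot intensities were deposited as the scanner software wrote them, with background-corrected processed signals and flags, and no normalization between arrays. The log2 values deposited by the authors equal the log2 median spot signal without background subtraction, shifted per array and centred per spot, to within 9.8e-08 over 62976 spots, and were used as an alternative. Per the file headers, Feature Extraction 10.7.3.1 was used, where the methods name another version. The RNA and labelling kits also differ between the sample records and the methods. No column lacked a sample.

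Processed signals were raised to a floor of 1, converted to log2 and centred on the 75th percentile of the non-control probes of its array, as the methods state for the raw signal. Spots flagged as outliers were dropped, and replicate spots of a probe were averaged. A probe counted as above background when at least a share of 0.5 of its spots was flagged so. RefSeq accessions gave symbols for 30004 of 50599 probes, through a table of GRCh38.p14 used for names only. The brightest probe stood for each gene, and 6 of the 32 genes had more than 1 probe. A gene above background on only 1 of 2 arrays entered as a bound against the higher of the dim signal and the lowest signal above background. Calls used size, at least 2-fold, and no test was run because each group had 1 array. The number of arrays limits the precision.

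Genes and lists were chosen with earlier results of these data known. All 32 genes are named, and of each related list the highest, the lowest and those past 2-fold, although some genes that fall under this rule are not reported here. Simulated data with known differences were used to test the calculation. In all, 9 alternatives were tried besides thresholds of 1.5-fold and 3-fold and a narrower fatty acid list. The work used Python 3.11.15 (pandas 2.3.3, numpy 2.4.6 and matplotlib 3.10.9) and limma 3.58.1 under R 4.3.3.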

Additional observations from a re-analysis of the deposited data

How the results depend on the processing

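No paired analysis was possible because each group had 1 array. Of 324 summary values under the alternatives, 249 stayed the same and 75 moved. A count was taken as the same when equal or within 1.5-fold of the reported count. A median, or a difference of medians, was taken as the same within 0.06, the median spot spread of the 32 genes. Of 864 values of single genes, 34 had the opposite sign to the reported value, 9 of them on CS against TCP, 7 on CSHA against TCP and 18 on CSHA against CS. In 6 of these the reported value had exceeded 2 spot spreads, and those are given below. Sterol enzymes were higher on CS in 17 of 18 cases under each of 9 alternatives. Their median exceeded that of the fatty acid enzymes on CS by 0.21 to 0.27 under these 9, and by 0.20 without ACLY, FADS1 and FADS2. Dim genes such as SC5D, FADS1 and FADS2 are limited by their signal over background. Where no other cause is shown, the cause was not tested.

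Under the spike-in scaling, all genes had medians of 0.56 on CSHA against TCP and 0.45 against CS, with those of the sterol enzymes at 0.87 and 0.45, and of the fatty acid enzymes at 0.56 and 0.35. With it, FDPS and ACLY reversed to 0.28 and 0.23 on CSHA against TCP, and PMVK, TM7SF2 and ACLY to 0.20, 0.20 and 0.14 on CSHA against CS. With it, 11 members were at least 2-fold higher on CSHA than on TCP and 2 than on CS, and 7 fatty acid enzymes were higher on CSHA than on CS. All genes past 2-fold were then 1768 higher and 181 lower on CSHA against TCP, and 986 and 117 against CS.

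Members at least 2-fold higher on CSHA numbered 0 with the 75th percentile of detected probes and at a 3-fold threshold, and 1 with normexp, quantile normalization or the deposited values. At 1.5-fold there were 11 higher and 1 lower on CSHA against TCP, 1 higher on CS, and 3 higher and 1 lower on CSHA against CS. Fatty acid enzymes higher on CS numbered 3 with the deposited values and with the 75th percentile of detected probes. Their median on CSHA was 0.067 with normexp, 0.050 with quantile normalization, 0.057 with the deposited values and 0.035 with the mean over probes, which put the sterol median at 0.35 and reversed ACACA on CSHA against CS to -0.0064. Quantile normalization put the fatty acid median at -0.093 on CSHA against CS and the gap between sterol and fatty acid medians at 0.37 on CSHA. Without ACLY, FADS1 and FADS2 that gap was 0.23 on CSHA and -0.0037 between the membranes.

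Without a filter on dim probes, medians of all genes were -0.053 on CS, 0.0085 on CSHA and 0.16 for CSHA against CS, and the sterol median stood 0.32, 0.43 and -0.085 from them. Counts of all genes past the threshold, higher then lower, for CS, CSHA and CSHA against CS, were 635 and 1152, 1130 and 1190, and 1111 and 676 without that filter, against 198 and 278, 442 and 582, and 332 and 314. They were 57 and 104, 155 and 292, and 105 and 148 with normexp, and 34 and 40, 123 and 277, and 47 and 116 with the deposited values. Genes above background on all 3 arrays gave 84 and 80 on CS, 263 higher on CSHA, and 108 and 203 between the membranes. At 1.5-fold the counts were 596 and 728, 1685 and 1637, and 1121 and 1070, and at 3-fold 75 and 123, 149 and 128, and 133 and 79.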
